A study of Mus musculus with 12 samples.

Results

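Wild-type (WT) mouse CD4+ T cells kept in interleukin 6 (IL-6) with TGF-β receptor signalling inhibited were compared at 12 h and 3 h after treatment. The comparison took the 6 WT libraries of 12 RNA sequencing libraries, 3 at each time, and was described across the 12436 of 24538 gene rows whose mean deposited log2 value was at least 3 over all 12 libraries. The choice of these genes and libraries used no measured difference between the times. Art4, Bcl2l14 and Tmem220 lay just inside that limit with means of 3.00, and Casq1, Loxl4 and Prm1 just outside it with means of 2.99. Cells came from peripheral lymph nodes and spleens of mice of the C57BL/6 background that the labels call female, and all of the cells were activated. The other 6 libraries are labelled knockout (KO) and held cells that carried floxed Smad4 alleles and a Cre recombinase transgene driven by Cd4 (Smad4 fl/fl, CD4cre), under the same treatment and at the same times. They entered the shared estimate of the spread and gave a second time course for comparison. All 4 groups shared the background, the activation, IL-6 and the inhibitor, so no group here was left without cytokine, and the age of the mice and the way of activation are not given in the labels. Nothing in the labels says that the 3 libraries of a group came from separate mice, although sex-linked genes, given below, set replicate 2 of each group apart from the others. The p-values therefore measure the spread between these libraries, which may be in part technical.

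A naive CD4+ T cell that is activated passes through a wave of immediate early transcription, then raises its metabolism and enters the cell cycle. IL-6 binds its receptor together with gp130 (Il6st) and acts through JAK kinases and STAT3, which in T cells favours the TH17 programme of IL-17, above all where TGF-β is also present. The receptor inhibitor used here blocks TGF-β signalling to the SMAD proteins. Type I and type II interferons act through other STAT proteins on a large set of antiviral genes, and naive T cells carry part of that set at rest.

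A difference below is the mean deposited log2 value of the WT libraries at 12 h minus that at 3 h, with its standard error (SE) from the model, and a fold is 2 to the power of that difference. Genes count as called where the adjusted p lay under 0.05 (limma, Benjamini-Hochberg over 12436 genes), and rose or fell is written only of called genes. Group means carry the standard deviation (SD) of 3 libraries. Values are relative to the other genes of a library after the authors' normalization, and in such mixed RNA fewer cells of a type and less RNA per cell cannot be told apart.

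The time change reached most genes. Of the 12436 genes tested, 8449 were called (67.9%), of which 4271 rose (34.3%) and 4178 fell (33.6%). By at least 2-fold, 1273 genes rose (10.2%) and 1307 fell (10.5%). The median difference over all genes was -0.00 with quartiles at -0.46 and 0.46. Most calls were small: 1456 rises and 1377 falls were under 0.5 on the log2 scale. The far ends were unequal, with 4 rises and 28 falls of at least 16-fold. The 6 WT values did not overlap between the times in 9044 genes (72.7%). With this background, the share of a gene group that was called says little by itself, and the sizes and directions of the differences carry the description. Centring each library on its median moved the median difference to -0.11 and gave 3535 rises and 4840 falls. The first principal component of the 6 WT libraries held 85.0% of the variance and separated the times.

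Genes of DNA replication and repair were frequent among the largest rises and interferon-induced genes among the largest falls, as the plot of level against difference shows. Kcnq5, a voltage-gated potassium channel subunit (chromosome 1, 21398403 to 21961942; GRCm38), had values of 5.74, 4.71 and 6.02 at 3 h and 11.09, 11.23 and 11.33 at 12 h. All 3 values at 12 h lay more than 5 units above the highest at 3 h, and the difference was 5.73 ± 0.24, the largest rise of any gene named by the rule. Dtl, the substrate receptor of a ubiquitin ligase that removes the licensing factor CDT1 (chromosome 1, 191537356 to 191575544), had values of 5.76, 5.32 and 5.41 at 3 h and 10.63, 10.75 and 10.60 at 12 h. It rose 35.8-fold. The 12 other largest rises were Chaf1a (4.14), Orc1 (4.12), Rpph1 (3.96), Uhrf1 (3.96), Egfr (3.85), Fignl1 (3.79), Fam129a (3.71), Stil (3.68), Rad51ap1 (3.65), Chtf18 (3.59), Il1a (3.58) and Dmwd (3.57). Among them are a chromatin assembly subunit (Chaf1a), the largest origin recognition subunit (Orc1), the RNA of ribonuclease P (Rpph1), a centriole duplication factor (Stil), an alternative clamp loader subunit (Chtf18), homologous recombination factors (Fignl1 and Rad51ap1) and the cytokine IL-1α (Il1a). Rpph1 lies beside another gene, and a library kit that does not mark strand cannot separate overlapping transcripts.

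**Figure D1:**
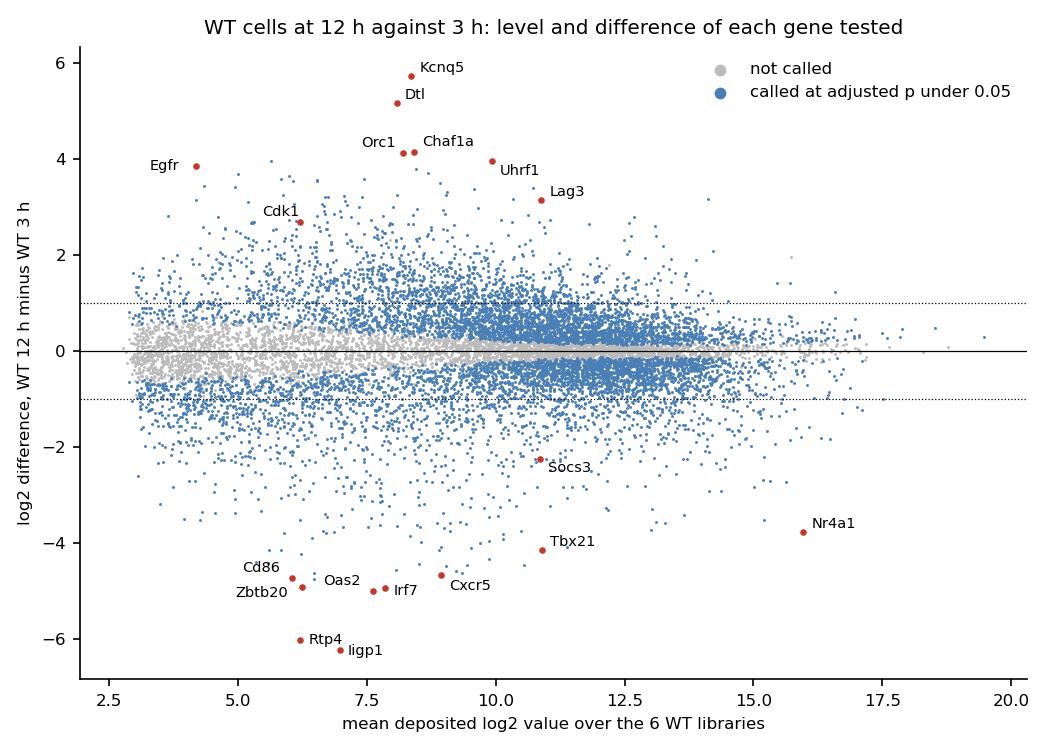
Difference between WT libraries at 12 h and 3 h (vertical axis, log2) against the mean deposited log2 value over the 6 WT libraries (horizontal axis) for each of 12436 genes, blue where called, with dotted lines at 2-fold and 18 genes named in the text in red. The falls reach further from 0 than the rises, to -6.23 for Iigp1 against 5.73 for Kcnq5.

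At the other end, Iigp1, an immunity-related GTPase, had values of 10.31, 9.99 and 9.96 at 3 h and 4.92, 3.32 and 3.34 at 12 h. Its difference of -6.23 ± 0.33 was the largest of any gene named, a 74.9-fold fall with no overlap between the times. Rtp4, an interferon-induced chaperone for membrane receptors (chromosome 16, 23520291 to 23614222), had values of 9.31, 9.03 and 9.32 at 3 h and 3.28, 3.33 and 2.97 at 12 h. Following it, the next falls were Oas2 (-4.99), Irf7 (-4.94), Zbtb20 (-4.91), Oas1a (-4.74), Cd86 (-4.72), Cxcr5 (-4.66), Tgtp1 (-4.63), Tgtp2 (-4.58), Rragd (-4.55), Ddx58 (-4.47), Gbp6 (-4.46) and Frmd4b (-4.46). Of these 14 falls, 9 belong to the interferon lists below. The others include the BTB zinc finger factor Zbtb20, the follicle-homing receptor Cxcr5, the costimulatory ligand Cd86 and Rragd, a Rag GTPase that signals amino acids to mTORC1.

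Promoter sequence is shown for groups whose regulators have well known binding motifs, among them the groups with the largest median fall and rise. Windows of 300 bases, 250 before to 50 after each RefSeq start (GRCm38.p6), were given for 27025 genes, of which 9702 were tested here, and each motif was searched on both strands. The interferon-stimulated response element was searched as GAAANNGAAA, a motif added after the values had been seen. It was held by 10 of the 11 interferon-induced GTPase genes with a window (90.9%), by 11 of 29 type I interferon response genes (37.9%) and by 3.99% of all genes. The letters TTCNNNGAA that STAT factors bind, also added afterwards, were held by 6 of the 11 GTPase genes (54.5%) and by 9.55% of all genes. The stretches below belong to the 3 holders of the response element with the largest falls among the promoters kept for display. Promoters of some genes were left out of this choice by chromosome, but not out of the counts. The stretches run 5′ to 3′ with the element in capitals (Oas1a chr5:120907516-120907575, Tgtp1 chr11:48992284-48992353 and Tgtp2 chr11:49064243-49064312, all on the minus strand). In the Oas1a stretch 2 matches run into each other.
Oas1a: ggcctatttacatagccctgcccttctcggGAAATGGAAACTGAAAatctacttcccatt
Tgtp1: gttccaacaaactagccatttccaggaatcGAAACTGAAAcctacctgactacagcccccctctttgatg
Tgtp2: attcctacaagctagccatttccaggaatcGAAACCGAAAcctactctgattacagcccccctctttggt

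E2F sites were searched as TTCCCGCC, TTTCGCGC or TTTGGCGC and were held by 21 of 49 DNA replication genes with a window (42.9%), against 3.39% of all genes and 6.56% of the genes tested. The median difference was 1.92 in the 21 holders and 1.12 in the other replication genes. The CHR element of mitotic genes, TTTGAA or TTCGAA, was held by 35 of 45 mitosis genes (77.8%) and by 21.7% of all genes, and the median difference of mitosis genes was 1.16 both with and without it. CCAAT, often found beside it, was held by 32 of 45 (71.1%) and 41.1%. The stretches shown belong to the 2 replication genes and the mitosis gene with the largest rises, with E2F or CHR letters in capitals (Chaf1a chr17:56040339-56040406, plus strand; Orc1 chr4:108579397-108579463, plus strand; Cdk1 chr10:69352903-69353013, minus strand). The Orc1 match is on the opposite strand.
Chaf1a: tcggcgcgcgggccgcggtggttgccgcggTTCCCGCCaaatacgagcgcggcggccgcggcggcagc
Orc1: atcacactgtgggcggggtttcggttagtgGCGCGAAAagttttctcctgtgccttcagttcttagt
Cdk1: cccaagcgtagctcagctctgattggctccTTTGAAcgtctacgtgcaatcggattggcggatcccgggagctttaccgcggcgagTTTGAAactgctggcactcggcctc

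Among immediate early genes, the cAMP response element TGACGTCA was held by 4 of 28 with a window (14.3%), against 2.03% of all genes and 3.72% of the genes tested. The CArG box that binds serum response factor was held by 4 of 28 (14.3%, against 1.81% of all and 1.57% of tested genes). The AP-1 letters TGACTCA or TGAGTCA were held by 1 of 28 (3.57%, against 5.95% of all and 4.24% of tested genes). The 4 with the cAMP element were Btg2, Maff, Dusp1 and Ppp1r15a, all of which fell. The STAT letters TTCNNNGAA were held by 3 of 28 IL-6, JAK-STAT and SOCS genes with a window (10.7%, against 9.55% of all genes and 8.28% of the genes tested), and Socs3 was one of the 3. The capitals below mark the cAMP element in Btg2 (chr1:134079284-134079351, minus strand), the CArG box in Zfp36 (chr7:28379247-28379316, minus strand) and the STAT letters in Socs3 (chr11:117969482-117969550, minus strand). A match describes letters in a window and not a site that is bound.
Btg2: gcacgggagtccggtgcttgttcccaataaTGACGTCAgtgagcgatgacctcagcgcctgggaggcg
Zfp36: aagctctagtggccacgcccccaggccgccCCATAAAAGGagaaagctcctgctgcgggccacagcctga
Socs3: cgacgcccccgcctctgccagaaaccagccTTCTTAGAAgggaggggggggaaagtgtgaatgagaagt

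The interferon-induced GTPases fell together and furthest of all groups. All 18 of them fell, 17 by at least 2-fold, with a median of -3.76 where the median of all genes was -0.00. These are the guanylate-binding proteins and immunity-related GTPases that act on the vacuoles of intracellular pathogens. Gbp7 had values of 11.17, 10.81 and 10.93 at 3 h and 6.84, 7.09 and 6.56 at 12 h, and the groups did not overlap. The family then ran from Iigp1 through Tgtp1 (-4.63), Tgtp2 (-4.58), Gbp6 (-4.46), Gbp10 (-4.43), Gbp8 (-3.98), Gbp9 (-3.91), Gbp11 (-3.76) and Gbp4 (-3.75), each at least 13-fold down, to Gbp2 (-2.84), Irgm1 (-2.16), Irgm2 (-2.12), Gbp3 (-2.03), Igtp (-1.77), Gbp5 (-1.53) and Gbp2b (-1.31), with Ifi47 (-0.88) the smallest. Tgtp1 and Tgtp2, and several Gbp genes of chromosome 5, are near-identical copies, so the split of reads between them is uncertain.

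Of 40 type I interferon response genes tested, 37 fell, 31 of them by at least 2-fold, 1 rose and 2 were not called, with a median of -2.50. Irf7, the factor that amplifies interferon transcription (chromosome 7, 141262706 to 141266481), had values of 10.45, 10.25 and 10.30 at 3 h and 6.04, 4.72 and 5.41 at 12 h. Its spread was wider at 12 h, where replicate 2 was lowest, and the times stayed more than 4 units apart. Oas1a, a sensor of double-stranded RNA (chromosome 5, 120896256 to 120907521), had values of 8.44, 8.78 and 9.33 at 3 h and 4.13, 3.98 and 4.22 at 12 h. It fell 26.6-fold (adjusted p = 9.80e-09). The sensors Ddx58 (-4.47), which encodes RIG-I, Ifih1 (-3.03), which encodes MDA5, Dhx58 (-1.63), which encodes LGP2, and Zbp1 all fell, as did the antiviral effectors Oas2 (-4.99), Oasl2 (-4.22), Oas3 (-3.40), Ifit1 (-3.66), Ifit3 (-2.82), Rsad2 (-3.38) and Mx2 (-3.51), the ubiquitin-like modifier Isg15 (-3.65) and its protease Usp18 (-2.02).

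Stat2 and Irf9, which carry the type I interferon signal, fell by smaller steps than the group's median. Stat2 had values of 10.79, 10.50 and 10.78 at 3 h and 9.62, 9.53 and 9.77 at 12 h and Irf9, its partner, had 11.72, 11.76 and 11.75 at 3 h and 10.54, 10.56 and 10.65 at 12 h. These are falls of 2.07- and 2.23-fold. Ifit2 was the 1 member that rose, at 8.42, 7.96 and 8.60 at 3 h and 9.27, 9.38 and 9.32 at 12 h, while its neighbours in the family Ifit1 and Ifit3 fell 12.7- and 7.06-fold. Interferon-γ itself (Ifng) fell (-1.22 ± 0.36), and its receptor chain Ifngr1 fell by a similar amount (-0.97 ± 0.28).

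Immediate early and AP-1 genes, which are switched on within minutes of T cell receptor triggering and switch off again, were mostly lower at 12 h than at 3 h. Their median level at 12 h was 11.93, against 10.31 for all genes tested, and no resting cells were measured. Of 34 tested, 28 fell, 24 of them by at least 2-fold, 2 rose and 4 were not called, with a median of -1.84. The nuclear receptor Nr4a1, a reporter of receptor signal strength (chromosome 15, 101254269 to 101274795), had values of 17.81, 17.88 and 17.85 at 3 h and 14.34, 13.89 and 14.01 at 12 h. Values within each time lay within 0.5 of each other and the fall was 13.6-fold. Its relatives Nr4a2 (-3.56) and Nr4a3 (-3.52) fell as far, and the Egr factors Egr1 (-2.08), Egr2 (-1.90) and Egr3 (-1.84) less. Of the AP-1 subunits, Fosl2 (-3.57) fell most, followed by Fos (-2.18), Junb (-1.75), Jun (-1.46), Fosb (-1.12) and Jund (-0.97). The mRNA-decay factors Zfp36 (-1.92) and Zfp36l1 (-1.84) and the antiproliferative Btg2 (-2.58) fell too. The largest fall in the group was that of the stress gene Ier3, at 9.81, 10.29 and 10.68 at 3 h and 6.53, 6.33 and 6.36 at 12 h. Exceptions were Klf6 (0.64) and Dusp6 (0.56), a phosphatase of ERK, which rose.

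NF-κB components followed the same course with smaller steps: 21 of 24 fell, 13 of them by at least 2-fold, 1 rose (Tnip1, 0.23) and 2 were not called. The nuclear IκB proteins Nfkbid (-2.70) and Bcl3 (-2.04) led, then the deubiquitinase Tnfaip3 (-1.72) and the ubiquitin ligase Birc3 (-1.61). The subunits Rel (-1.54), Nfkb1 (-1.30), Relb (-1.27), Rela (-0.94) and Nfkb2 (-0.46) all fell, in that order of size. Nfkbid had values of 16.53, 16.75 and 16.73 at 3 h and 14.05, 13.92 and 13.95 at 12 h, and Nfkb2 15.01, 15.00 and 14.99 at 3 h and 14.52, 14.55 and 14.55 at 12 h. Both pairs of groups were apart, although the Nfkb2 step was less than 1.5-fold.

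Genes of the IL-6, JAK-STAT and SOCS list were mostly lower at 12 h, including feedback inhibitors. The list holds pathway members, and which genes respond to IL-6 was not tested, since no library lacked it. Of 38 genes for IL-6 receptors, JAK kinases, STAT factors and SOCS proteins, 23 fell, 7 rose and 8 were not called, with a median of -0.49. Socs3, the inhibitor that binds gp130 (chromosome 11, 117966079 to 117970047), had values of 11.97, 11.94 and 12.03 at 3 h and 9.52, 9.71 and 9.97 at 12 h. Its 3 h values lay within 0.1 of each other and the fall was 4.77-fold. Socs1, which inhibits JAK kinases, fell 9.94-fold from 13.74, 13.92 and 13.87 at 3 h to 10.30, 10.63 and 10.66 at 12 h, and Cish, a feedback inhibitor of STAT5 signalling, fell 4.73-fold. The signalling chain gp130 (Il6st) was at 15.30, 15.49 and 15.52 at 3 h and 13.00, 13.23 and 13.09 at 12 h, and Stat3 at 15.48, 15.57 and 15.54 at 3 h and 13.85, 14.09 and 14.07 at 12 h. These are falls of -2.33 ± 0.09 and -1.53 ± 0.08, and the binding chain Il6ra (-0.97) fell less. Among the kinases Jak2 (-1.24) and Jak3 (-0.49) fell and Tyk2 (0.30) rose.

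The 7 rises in this group included Tyk2 and a survival kinase, Pim2. Pim2 rose 5.27-fold, from 11.85, 11.16 and 11.27 at 3 h to 13.73, 13.94 and 13.80 at 12 h, while its relatives Pim1 (-1.65) and Pim3 (-1.49) fell. Stat4 and Il12rb1, which carry the IL-12 signal, rose (1.12 ± 0.12 and 1.28 ± 0.08), and Il12rb2, the inducible chain of the same receptor, fell (-1.20 ± 0.25). The SUMO ligase Pias3 and the phosphatases Ptpn6 (0.45) and Ptpn11 (0.36) rose.

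Genes of the TH17 programme were mostly lower at 12 h. Of the 20 genes tested, 17 fell, 14 by at least 2-fold, 1 rose and 2 were not called, with a median of -1.27. Rora, a nuclear receptor of the programme (chromosome 9, 68653786 to 69388246), had values of 12.23, 11.83 and 11.71 at 3 h and 9.47, 9.67 and 9.72 at 12 h. All 3 values at 12 h lay below those at 3 h, a fall of 4.95-fold (adjusted p = 1.22e-08). Il17f had values of 5.39, 5.17 and 4.92 at 3 h and 2.25, 2.23 and 2.54 at 12 h, low throughout. It fell 7.08-fold on a scale that may understate the change of low genes. Il17a and Il23r were below the filter. Il17a was at 0.99, 1.90 and 1.76 at 3 h and at 0.98 in all 3 libraries at 12 h. Il23r, the IL-23 receptor, went the other way at very low values, from 0.07 in each library at 3 h to 0.40, 0.24 and 0.71 at 12 h, and was not tested.

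The other TH17 factors fell as well: Batf (-1.27) and Irf4 (-0.76), which open the shared sites of the programme, Maf (-1.07), Ahr (-1.11), Runx1 (-1.27), Hif1a (-0.69) and Fosl2 (-3.57). Il21, the autocrine cytokine of the programme, was at 12.26, 12.41 and 12.46 at 3 h and 9.82, 10.66 and 10.47 at 12 h. It fell 4.17-fold and Il10 fell 4.36-fold. The 1 rise was Rbpj, the DNA-binding partner of Notch, at 13.66, 13.82 and 13.87 at 3 h and 14.24, 14.22 and 14.34 at 12 h (0.48 ± 0.07).

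Factors of other helper lineages were mostly lower too: of 21 tested, 13 fell, 4 rose and 4 were not called. Tbx21, which encodes T-bet of TH1 cells (chromosome 11, 97098071 to 97115331), had values of 12.92, 13.02 and 12.93 at 3 h and 8.47, 8.75 and 9.24 at 12 h. It fell 17.6-fold, the furthest in the group. Tox2 (-3.68) and Bcl6 (-1.59) of follicular helper cells, Prdm1 (-2.99), Irf8 (-3.41), Irf1 (-1.74), Id2 (-2.25) and Gata3 (-0.75) of TH2 cells fell. The risers were Zbtb7b, which encodes the CD4 lineage factor ThPOK (1.61 ± 0.10), the E-protein inhibitor Id3 (1.10), and the E proteins Tcf3 (0.96) and Tcf12 (0.15). Foxp3 of regulatory T cells was at 6.45, 6.47 and 6.75 at 3 h and 6.23, 5.46 and 6.08 at 12 h, lower in all 3 libraries at 12 h but not called (adjusted p = 0.103), and called with the 6 WT libraries fitted alone (adjusted p = 0.0303) or without replicate 3 of the libraries labelled KO at 12 h (0.0277).

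Of 21 helper cytokine genes tested, 16 fell, 3 rose and 2 were not called. Il2 had values of 15.84, 15.99 and 16.24 at 3 h and 14.74, 14.68 and 14.60 at 12 h, and Tnf 15.33, 15.50 and 15.86 at 3 h and 13.64, 13.48 and 13.58 at 12 h. For neither gene did the times overlap, with falls of 2.55- and 3.98-fold. Lymphotoxin β (Ltb, -1.58), TGF-β1 (Tgfb1, -1.88), RANK ligand (Tnfsf11, -1.91), leukemia inhibitory factor (Lif, -1.30), interleukin 3 (Il3, -1.41) and the colony stimulating factors Csf1 (-1.22) and Csf2 (-0.78) fell. Tnfsf4, the OX40 ligand, rose (1.59 ± 0.22), as did Mif (0.59) and Il16 (0.44). Il4, Il5, Il9 and Il22 were below the filter.

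SMAD and TGF-β pathway genes were measured under blocked receptor signalling in all libraries. Of 30 tested, 21 fell, 5 rose and 4 were not called, with a median of -0.45. Smad3, which carries the TGF-β signal (chromosome 9, 63646767 to 63757994), had values of 13.94, 13.97 and 13.95 at 3 h and 11.16, 11.18 and 11.10 at 12 h. Within a time the values lay within 0.1 of each other, and the fall was 6.99-fold (adjusted p = 2.77e-14). Smad2, its close relative, fell by a far smaller step (-0.14 ± 0.05), a call lost under quantile normalization (-0.06). Smad4, the shared partner, had values of 11.65, 11.58 and 11.71 at 3 h and 11.53, 11.49 and 11.52 at 12 h. Its difference of -0.13 ± 0.06 missed the threshold (adjusted p = 0.0560), and it was called under 4 of the alternatives, with adjusted p from 0.00220 to 0.0459.

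The inhibitory SMAD of the pathway and other genes that TGF-β is known to induce fell: Smad7 was at 11.32, 11.67 and 11.62 at 3 h and 9.42, 9.33 and 9.50 at 12 h, and Pmepa1 fell 3.39-fold. The corepressor Skil, whose protein is degraded on TGF-β signalling, fell by a small step (-0.38 ± 0.09). Ski, its relative, was at 12.34, 12.21 and 12.21 at 3 h and 12.04, 12.11 and 12.09 at 12 h and fell by less (-0.17 ± 0.06), a call also lost under quantile normalization. The receptor chain Tgfbr1 (-1.04) fell more than Tgfbr2 (-0.46), and the latent TGF-β docking protein Lrrc32 (GARP) fell furthest in the group (-3.40 ± 0.50). The activin receptor Acvr2b (1.57) and endoglin (Eng, 1.33), a co-receptor, rose from low values.

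**Figure D2:**
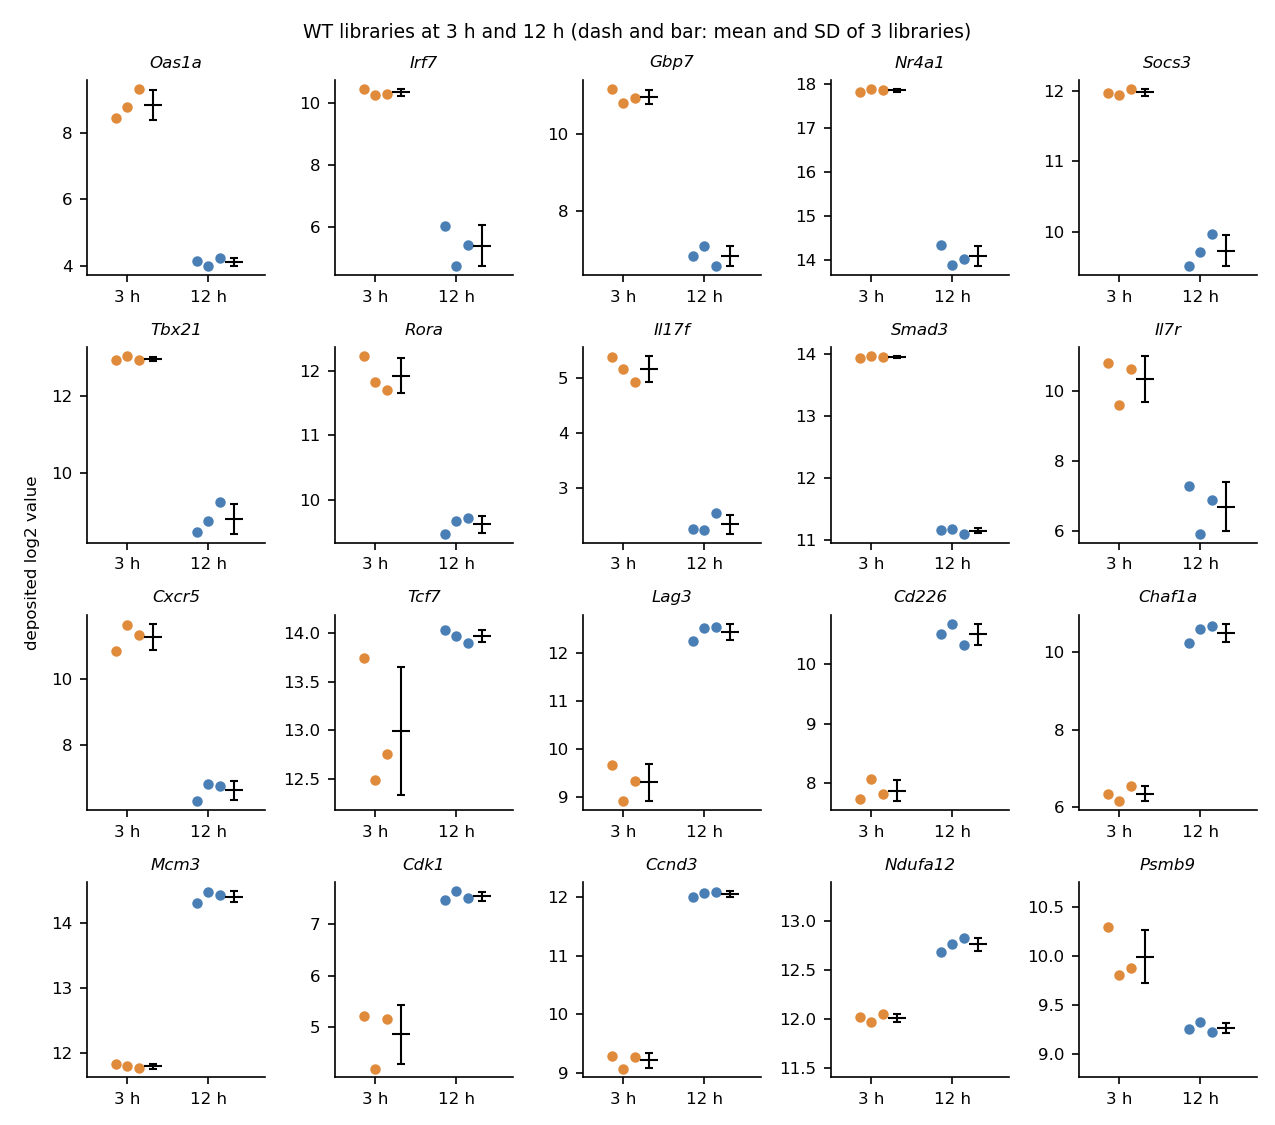
Deposited log2 values (vertical axes, each panel on its own scale) of 20 genes in the 3 WT libraries at 3 h (orange) and at 12 h (blue), with the mean and SD of 3 libraries in black. In each of the 20 genes the values at the times do not overlap, from Psmb9 (-0.73) to Irf7 (-4.94) among the falls and from Ndufa12 (0.75) to Chaf1a (4.14) among the rises.

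Genes of naive and resting T cells split rather than moving as a block: of 37 tested, 18 fell (48.6%), 12 rose (32.4%) and 7 were not called. Of all genes tested, 33.6% fell and 34.3% rose. Il7r, the IL-7 receptor that keeps naive cells alive (chromosome 15, 9505788 to 9530176), had values of 10.81, 9.61 and 10.65 at 3 h and 7.28, 5.92 and 6.88 at 12 h. Replicate 2 was lowest at both times, and the times stayed more than 2 units apart. Klf2 and S1pr1, which keep T cells circulating through lymph nodes, fell (-1.92 ± 0.34 and -1.48 ± 0.42), with overlapping values for S1pr1, as did Ly6c1 (-3.23), Btg1 (-2.10), Satb1 (-1.93) and Foxo1 (-0.63). By contrast Ccr7, the lymph node homing receptor, rose 3.81-fold, with values of 12.59, 11.59 and 11.65 at 3 h and 14.05, 13.87 and 13.70 at 12 h.

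Tcf7 and Lef1, the T cell factors of naive and memory cells, rose (0.97 ± 0.20 and 0.79 ± 0.08). Tcf7 was at 13.74, 12.49 and 12.76 at 3 h and 14.03, 13.97 and 13.90 at 12 h, and replicate 1 at 3 h came close to the 12 h values. Evl, a regulator of actin, rose most in the group (2.68 ± 0.20), and Pdcd4 (1.28), Klf3 (1.06), Ets1 (0.91), Txnip (0.92) and Bach2 (0.46) rose too. All 8 Gimap GTPases, which support lymphocyte survival, fell, 6 by at least 2-fold, from Gimap4 (-2.35) to Gimap1 (-0.42).

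Receptors of activation and costimulation split as well, with 22 falls, 8 rises and 4 not called among 34. The early markers Cd69 (-1.85), Cd40lg (-1.93), Tnfrsf9 (-0.80), Il2ra (-0.72) and Il2rb (-1.03) fell. The inhibitory receptor Lag3 (chromosome 6, 124904361 to 124911705) had values of 9.67, 8.91 and 9.33 at 3 h and 12.26, 12.54 and 12.56 at 12 h. It rose 8.85-fold with no overlap. Cd226 and Tigit, which compete for the same ligands, rose together, Cd226 from 7.73, 8.07 and 7.82 at 3 h to 10.50, 10.68 and 10.32 at 12 h (6.19-fold) and Tigit 4.33-fold. Cd200 (2.19), OX40 (Tnfrsf4, 1.40), Cd28 (1.27), Cd44 (1.14) and GITR (Tnfrsf18, 0.70) rose, while the inhibitory receptors Ctla4 (-0.90) and Pdcd1 (-0.64) fell. Cd86, which antigen-presenting cells express, was at 8.22, 8.59 and 8.41 at 3 h and 3.41, 3.94 and 3.70 at 12 h, a 26.4-fold fall. Its level sits beside the fall of B cell and myeloid markers given below.

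Among 20 chemokine and chemokine receptor genes, 10 fell, 5 rose and 5 were not called. Cxcr5 had values of 10.84, 11.65 and 11.32 at 3 h and 6.28, 6.80 and 6.75 at 12 h and fell 25.3-fold. Cxcr4 (-2.57) and Cxcr3 (-1.55) also fell, and Ccr7 (1.93), Ccr4 (1.48) and the chemokine Ccl3 (1.28) rose. T cell receptor signalling genes leaned down, with 25 falls, 11 rises and 4 not called among 40. The phosphatase Ptpn22 (-1.97), Rasgrp1 (-1.59) and Malt1 (-1.40) fell, while Cd4 itself rose, at 13.31, 13.35 and 13.38 at 3 h and 14.40, 14.57 and 14.54 at 12 h, with Cd247 (0.71) and Nfatc2 (1.57). Of the calcineurin-regulated factors Nfatc1 fell (-1.27 ± 0.07) where Nfatc2 and Nfatc3 (0.98) rose.

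Cell cycle genes showed the steepest group rise. Of 58 DNA replication genes, 54 rose, 44 by at least 2-fold, 1 fell and 3 were not called, with a median of 1.45. Chaf1a (chromosome 17, 56040439 to 56072289) had values of 6.35, 6.16 and 6.55 at 3 h and 10.22, 10.59 and 10.66 at 12 h, and Orc1 (chromosome 4, 108579423 to 108614833) 6.35, 6.16 and 5.93 at 3 h and 10.14, 10.44 and 10.21 at 12 h. Both genes had the times more than 3 units apart. The 6 subunits of the MCM2 to MCM7 helicase all rose, with a median of 2.00, and Mcm3 went from 11.83, 11.79 and 11.76 at 3 h to 14.30, 14.47 and 14.42 at 12 h. Likewise the helicase loader Cdc6 (2.91), the licensing inhibitor Gmnn (3.25), the activators Cdc45 (2.64), Ticrr (3.13) and Mcm10 (3.54), the GINS subunits Gins1 (2.81) and Gins2 (2.33), the ligase Lig1 (2.72) and the maintenance methylation pair Uhrf1 (3.96) and Dnmt1 (1.48) rose. The polymerase clamp Pcna, already at 14.34, 14.50 and 14.56 at 3 h and 14.64, 14.68 and 14.64 at 12 h, rose by a small step (0.19 ± 0.07). Chaf1b, the partner of Chaf1a in chromatin assembly factor 1, was the 1 fall, with means of 10.81 ± 0.03 at 3 h and 9.93 ± 0.09 at 12 h (SD, n = 3).

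Mitosis genes rose less evenly: 38 of 54 rose, 26 by at least 2-fold, 3 fell and 13 were not called, with a median of 0.90. Cdk1, the mitotic kinase (chromosome 10, 69335146 to 69352938), had values of 5.22, 4.19 and 5.16 at 3 h and 7.48, 7.65 and 7.52 at 12 h. Replicate 2 at 3 h was about 1 unit below the other replicates, and the rise was 6.47-fold. Racgap1 (2.67), Bub1b (2.64), Top2a (2.52), Ect2 (2.42), Tpx2 (2.35) and Ccnb1 (1.93) rose by more than 3-fold, Ccna2 (0.59) and Plk1 (0.48) by less. Mki67, the proliferation marker Ki-67, fell instead (-0.62 ± 0.21, adjusted p = 0.0162; -0.39 and not called without replicate 2 at 12 h), as did Kif15 (-0.74) and Cenpn (-0.77).

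Of 29 G1 regulators, 16 rose, 5 fell and 8 were not called. Ccnd3, cyclin D3, had values of 9.30, 9.08 and 9.27 at 3 h and 11.99, 12.07 and 12.08 at 12 h, a 7.10-fold rise. Ccnd2, the other D cyclin with high values here, fell slightly (-0.42 ± 0.06). Cyclin E1 (Ccne1, 2.19), Cdk2 (1.21), Cdk6 (0.92), Cdk4 (0.42), E2f1 (1.23) and the pocket protein Rbl1 (2.25) rose, while Rb1 (-0.90) and the inhibitors Cdkn1a (-0.67) and Cdkn1c (-1.76) fell. Nucleotide synthesis enzymes, which supply replication, rose in 21 of 32 cases and fell in 5. Among the rises were thymidylate synthase (Tyms, 2.18), the ribonucleotide reductase subunits Rrm2 (2.00) and Rrm1 (1.45), Dut (1.81) and Dck (1.61). Thymidine kinase Tk1 (-0.67) fell.

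Most members of the lists of nuclear-encoded respiratory chain, mitochondrial ribosome and TCA cycle genes rose, by less than 2-fold in most cases. Of 78 respiratory chain subunits, 71 rose, none fell and 7 were not called, with a median of 0.66 and 10 at least 2-fold up. All but 1 of 36 complex I subunits were among the rises. Ndufa12 of complex I was at 12.02, 11.97 and 12.05 at 3 h and 12.69, 12.77 and 12.83 at 12 h, and Ndufb10 rose furthest (1.31 ± 0.10). Of 77 mitochondrial ribosomal proteins, 62 rose and 2 fell (median 0.46), and of 26 genes of the TCA cycle and glutamine use, 19 rose and 2 fell (median 0.48). Idh2, the mitochondrial NADP-dependent isocitrate dehydrogenase, had values of 8.97, 8.83 and 8.93 at 3 h and 10.85, 11.04 and 11.07 at 12 h, and it rose 4.22-fold against 2.41-fold for Mdh1.

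Glycolysis, pentose phosphate and hypoxia genes were mixed, with 19 rises, 8 falls and 9 not called among 36. Triose phosphate isomerase rose most, with Tpi1 at 11.57, 11.26 and 10.94 at 3 h and 13.76, 14.05 and 13.92 at 12 h, then Eno1 (1.75), Ldhb (1.47), Gapdh (1.42) and Pfkm (1.31). Eno1 and Gapdh have many processed copies in the genome, so their counts are uncertain. The glucose transporters Slc2a1 (-0.22) and Slc2a3 (-0.50), the lactate carrier Slc16a1 (-0.45), Hk1 (-0.66), Pfkfb3 (-0.90) and the hypoxia factor Hif1a (-0.69) fell, and Hk2 (0.32) rose. Amino acid carriers fell from 3 h: Slc1a5 (-1.59), Slc7a1 (-1.25), Slc3a2 (-1.14), Slc7a5 (-0.81) and Slc38a1 (-0.70). The letters TGATGNAA, a composite element of the stress factor ATF4, were held by 7 of 23 amino acid stress genes with a window (30.4%) and by 4.51% of all genes. The synthesis enzymes Asns (1.25), Psph (1.42), Phgdh (0.68) and Cth (1.84) rose.

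Cholesterol synthesis rose in 14 of 25 genes and fell in 5, with 4 rises and no falls of 2-fold or more. Mevalonate kinase (Mvk) led, at 7.49, 6.98 and 7.43 at 3 h and 9.40, 9.37 and 9.15 at 12 h, followed by Pmvk (1.57) and Dhcr7 (1.54). The sterol sensor partner Insig1 (-0.82) and the pathway's transcription factor Srebf2 (-0.31) fell. Sterol efflux genes, targets of the LXR receptors, fell in 6 of 7 cases, with Abcg1 at 10.21, 9.94 and 10.45 at 3 h and 7.11, 6.91 and 7.05 at 12 h (-3.18 ± 0.14) and Abca1 (-1.81). The sterol element TCACCCCAC was found in 1 of 17 synthesis promoters with a window (5.88%, against 0.614% of all genes), that of Hmgcs1, which rose by 0.82 (chr13:119690184-119690252, plus strand), shown because it is the only holder, with the element in capitals.
Hmgcs1: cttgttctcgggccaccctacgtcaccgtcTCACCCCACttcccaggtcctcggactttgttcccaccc

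Proteasome genes rose in 34 of 45 cases and fell in 4 (median 0.40). Psmb3 had values of 12.92, 13.03 and 12.90 at 3 h and 13.91, 13.90 and 13.86 at 12 h and rose furthest. The 4 falls were the interferon-inducible subunits Psmb9 (-0.73) and Psmb10 (-0.34) and the activator subunits Psme1 (-0.86) and Psme2 (-1.74), whereas Psmb8 (0.36), the third inducible catalytic subunit, rose. Heat shock and chaperonin genes rose in 20 of 30 cases, among them all 8 subunits of the cytosolic chaperonin (median 0.30), Hspd1 (0.68) and Hspe1 (0.84). The stress-inducible Hspa1a and Hspa1b went the opposite way. Hspa1a had means of 10.99 ± 0.43 at 3 h and 7.24 ± 0.21 at 12 h (SD, n = 3), and Hspa1b fell as far (-3.57 ± 0.24), though these near-identical copies cannot be told apart well.

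Endoplasmic reticulum genes split with 22 rises, 12 falls and 9 not called among 43, and the split became 14 to 13 when each library was centred on its median. The disulfide isomerases Pdia3 (1.05) and Pdia4 (1.05) and the co-chaperone Dnajc3 (0.90) rose. The stress-responsive Dnajb9 (-1.85), Ero1lb (-1.96), Hspa5 (-0.52), Xbp1 (-0.23) and the sensors Eif2ak3 (-0.77) and Ern1 (-0.59) fell. The ER stress element (CCAAT, 9 bases, CCACG) was held by 9 of 33 of these genes with a window (27.3%) and by 0.137% of all genes, with both risers and fallers among the holders. Dnajc3, the holder with the largest rise (chr14:118937797-118937875, plus strand), is shown with the element in capitals.
Dnajc3: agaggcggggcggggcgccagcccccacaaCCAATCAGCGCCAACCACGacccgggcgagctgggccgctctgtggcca

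The machinery of protein synthesis moved little, and its direction depended on scaling. Of 86 ribosome biogenesis genes, 47 fell, 10 rose and 29 were not called (median -0.17), none by 2-fold, but under quantile normalization the falls and rises were 25 and 23 (median 0.01). Median centring left the deposited order, at 62 falls and 6 rises. Nucleolar factors such as Rrp1b (-0.81) and Nol6 (-0.74) fell under the deposited scaling, and Npm1 (0.46) and Ubtf (0.78) rose. Of 82 cytosolic ribosomal proteins, 39 rose, 2 fell and 41 were not called (median 0.20), against 53 and 1 under quantile normalization and 19 and 9 under median centring. Many of these have processed copies and are uncertain singly. Translation initiation factors (19 rises and 11 falls of 52) and splicing factors (33 and 19 of 77) turned to 10 and 16, and to 22 and 26, under median centring. As deposited, 36.5% of the initiation factors and 42.9% of the splicing factors rose, against 34.3% of all genes tested.

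Myc, known to drive growth and ribosome biogenesis, was at 16.89, 16.96 and 16.88 at 3 h and 15.96, 15.87 and 15.98 at 12 h. It fell 1.96-fold (adjusted p = 7.28e-09). Its antagonist Mxd1 fell much further, with means of 11.61 ± 0.12 at 3 h and 8.15 ± 0.33 at 12 h (SD, n = 3), and Mnt (-1.62) fell too. The letters CACGTG that MYC and its partners bind were held by 16 of 73 ribosome biogenesis genes with a window (21.9%, against 8.09% of all genes and 12.1% of the genes tested), and the median difference was -0.17 both with and without them.

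**Figure D3:**
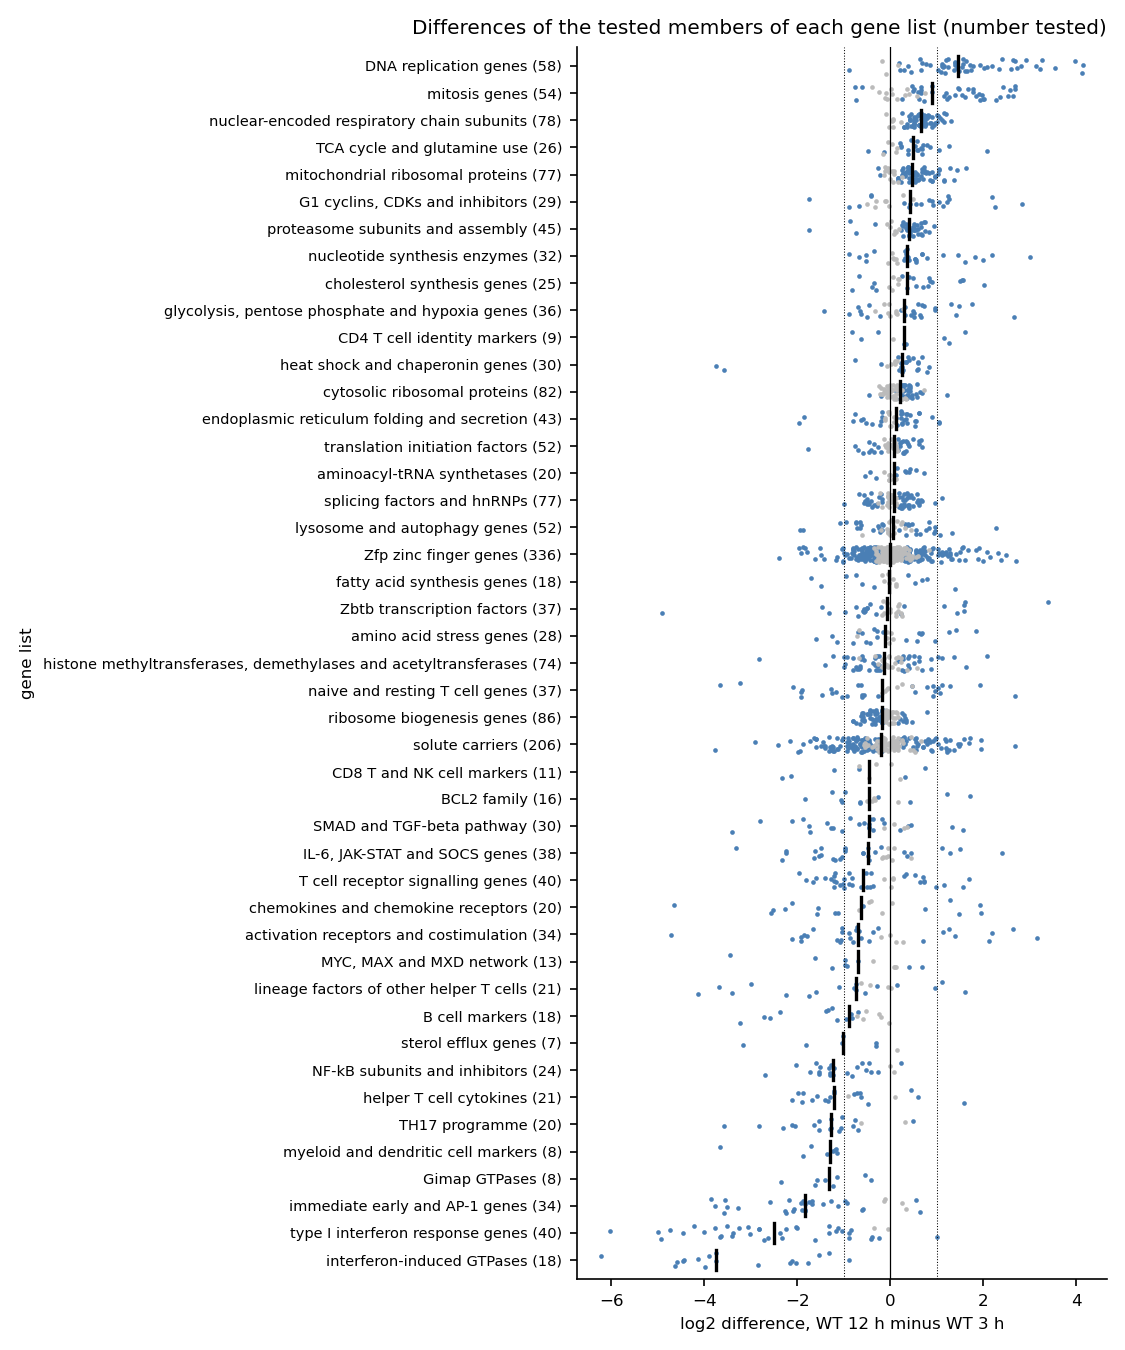
Difference between WT libraries at 12 h and 3 h (horizontal axis, log2) for the tested members of each gene list with at least 7 of them (vertical axis, number tested in brackets), blue where called and grey where not, with a black bar at the list's median and dotted lines at 2-fold. Lists run from a median of -3.76 for interferon-induced GTPases to 1.45 for DNA replication genes. The medians of ribosome biogenesis, translation initiation, aminoacyl-tRNA synthetase, splicing, fatty acid and lysosome lists change sign under quantile normalization or median centring.

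Apoptosis regulators of the BCL2 family fell in 8 of 16 cases and rose in 3, where 33.6% of all genes tested fell and 34.3% rose. The killer BIM (Bcl2l11, -1.84) and the protectors Bcl2 (-1.06) and Mcl1 (-0.66) all fell, and Bad (1.71) and Bcl2l2 (1.21) rose. Chromatin modifiers were mixed, with 21 rises (28.4%) and 29 falls (39.2%) of 74, against 24 and 23 under quantile normalization and 16 and 35 under median centring. Kdm6b, the H3K27 demethylase, had values of 16.41, 16.46 and 16.38 at 3 h and 13.74, 13.46 and 13.59 at 12 h, a 7.08-fold fall, whereas Ezh2, the methyltransferase for the same residue, was at 11.25, 11.14 and 11.31 at 3 h and 12.81, 12.91 and 12.84 at 12 h and rose 3.08-fold. The deacetylase Hdac7 (2.08) rose most in this group. Of the BTB zinc finger factors, 15 of 37 fell (40.5%) and 8 rose (21.6%). At the low end was Zbtb20, at 8.65, 8.74 and 8.71 at 3 h and 4.42, 3.30 and 3.66 at 12 h. At the high end was Zbtb32, at 7.76, 7.32 and 8.57 at 3 h and 11.10, 10.99 and 11.71 at 12 h (3.38 ± 0.26).

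Solute carriers fell in 90 (43.7%) and rose in 50 (24.3%) of 206 cases, where 33.6% of all genes tested fell and 34.3% rose. The glutamate carrier Slc1a1 (-3.78) and the magnesium exchanger Slc41a1 (-2.91) fell most, and the mitochondrial ADP/ATP carrier Slc25a4 (1.94) was among the rises. Lysosome and autophagy genes were balanced, with 19 rises (36.5%) and 17 falls (32.7%) of 52, near the shares of all genes. Lipa, the lysosomal acid lipase, was at 8.72, 6.95 and 8.09 at 3 h and 10.08, 10.27 and 10.26 at 12 h and rose 4.87-fold, with Ctsd (1.33) and Ctsb (0.96), while Map1lc3a (-1.95) and Ctss (-1.89) fell.

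The cells carried the markers of CD4 T cells throughout. The summed level of the 9 CD4 T cell identity markers was 17.36 to 17.44 at 3 h and 17.33 to 17.36 at 12 h on the log2 scale. Markers of other cells were present at lower sums, and those of B cells and myeloid cells fell with time. The 18 B cell markers summed to 13.90 to 14.03 at 3 h and 12.67 to 13.09 at 12 h, and 12 of them fell, none rose and 6 were not called. Their MHC class II genes fell most, with H2-Aa at 9.62, 9.67 and 9.36 at 3 h and 6.80, 6.03 and 6.14 at 12 h, and the defining marker Cd79a (-1.14) fell less. All 8 tested myeloid and dendritic cell markers fell, of 18 listed. The filter took the mean over both times, so a low marker such as Lyz2 could pass it through its 3 h values. That all of those tested fell is therefore weak evidence. The sum over all 18 listed, tested or not, went from 12.06 to 12.19 down to 10.16 to 10.33. Ctss and Ly6c2, which T cells also express, and Lyz2 were among the 8. Lyz2 was at 3.93, 3.21 and 4.24 at 3 h and 2.20, 3.16 and 2.55 at 12 h. Such sums follow the highest members of a list. The median level of the tested myeloid markers was only 4.49 at 3 h and 3.18 at 12 h, and that of the B cell markers 6.32 and 5.20. The 18 listed CD8 T and NK cell markers summed to 11.03 to 11.40 at 3 h and 10.66 to 11.19 at 12 h, ranges that overlap. Of the 11 tested, 4 fell, 2 rose and 5 were not called. Of the γδ T and NKT cell list only Cd1d1 and Blk were tested, and both fell. Blk is also on the B cell list. The γδ receptor genes were not matched, and Sox13, Zbtb16 and Il23r lay below the filter. A change in those cells was therefore not measured. Of 2 tested erythroid and platelet markers, 1 fell. Haemoglobin genes were listed at 0 in all libraries. Several interferon genes, Cd86 and Ctss are known to be expressed in these other cells, and their part in the falls was not tested.

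The sex-linked genes went against the label in the replicate 2 library of each group. Xist was at 4.55 to 5.70 and Ddx3y at 12.34 to 12.69 in those 4 libraries, against at least 15.08 for Xist and at most 2.77 for Ddx3y in the other 8. Each group held 1 such library. Without them, 3556 genes rose and 3539 fell, and 7042 of the 8449 calls remained in the same direction.

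The cells labelled KO ran nearly the same course, with Pmepa1 among the genes of lowest p in the direct test of a difference. The deposited Smad4 level does not check their label: the libraries labelled KO had values of 11.66, 11.62 and 11.66 at 3 h and 11.50, 11.50 and 11.60 at 12 h, within the range of the WT values above, and a value over the whole gene does not show whether a floxed part is missing. In them 8453 genes were called (68.0%), and 7612 of the 8449 WT calls (90.1%) were called in the same direction. The WT comparison and theirs share no library. Of the 2580 WT calls of at least 2-fold, 2575 had the same sign in the libraries labelled KO. Across the 12436 genes, which are not independent, Pearson's r between the differences was 0.962. The direct test of the difference between the time changes (limma) called 0 genes (0.00%), with 497 at an unadjusted p under 0.05. Without the WT 3 h library of replicate 2 it called 28, and without any other single library at most 2.

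Pmepa1, a TGF-β-induced feedback inhibitor, fell by -1.76 in WT and -1.07 in the libraries labelled KO, a difference in change of 0.69 ± 0.10 that missed the threshold over all genes (limma, adjusted p = 0.0552) and was called under quantile normalization (adjusted p = 0.0113), with adjusted p from 0.00625 to 0.221 when single libraries were left out. Il17f fell in both, by -2.82 in WT and -1.86 in the libraries labelled KO. The list medians lay close, at -2.50 in WT and -2.42 in the libraries labelled KO for type I interferon genes, 1.45 and 1.29 for DNA replication and -1.27 and -1.07 for the TH17 programme. Uggt2, a glucosyltransferase of the endoplasmic reticulum, was the 1 gene called in opposite directions. Its WT values were 4.60, 3.95 and 4.12 at 3 h and 2.98, 3.47 and 3.33 at 12 h, with a difference of -0.96 ± 0.25, and the difference was 0.61 in the libraries labelled KO. The direct test of that contrast was not called (adjusted p = 0.369), and the gene was picked out after its values were seen.

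**Figure D4:**
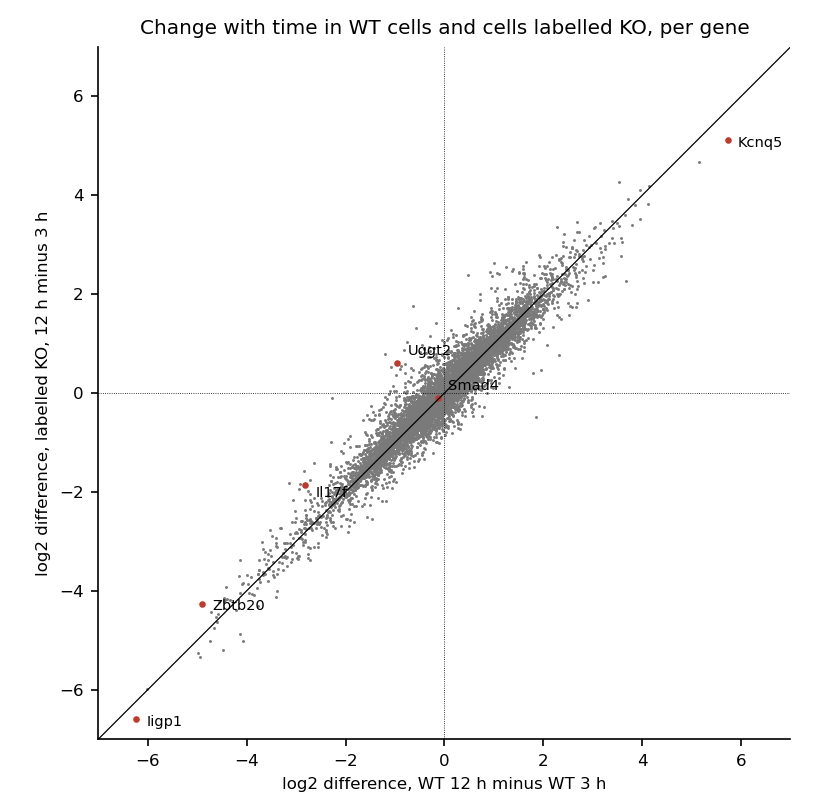
Difference between 12 h and 3 h in cells labelled KO (vertical axis, log2) against that in WT cells (horizontal axis, log2) for each of 12436 genes, with the line of equality and 6 genes named. The points lie along the line, from Iigp1 (-6.23 in WT and -6.60 in those labelled KO) to Kcnq5 (5.73 and 5.11).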

How the data were processed

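RNA sequencing libraries of 12 samples, 3 for each genotype and time, were deposited as 1 table. Per its name and the submitters' processing notes, the authors deposited log2 normalized expression values per gene after Trim Galore, STAR, featureCounts and DESeq2 on build mm10. How the values were transformed, tool versions, counting options and gene models are not stated there. The values run from -2.37 to 20.1, with 5663 of 24538 rows at 0 in all libraries. They hold no counts, so sequencing depth is unknown, and no interval or detection limit is given. Differences of low genes may be drawn towards 0, which cannot be told while the transformation is not stated. The library kit named in the labels (TruSeq V2) does not mark strand, and reads of near-identical copies may be split. In 26 rows the gene name had turned into a date, 19 of them tested.

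Here genes with a mean of at least 3 over the 12 libraries were fitted with limma 3.58.1 in R 4.3.3: a mean for each of the 4 groups, a trended prior variance, 2-sided contrasts and Benjamini-Hochberg adjustment over 12436 genes, called at adjusted p under 0.05. All 4 groups shared the estimate of the spread. The fit was tested on simulated data. No gene set test was run. The 12 libraries differ pairwise, and all were used.

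The comparison, the 47 gene lists, the motifs and the rule for named genes were chosen with earlier results of these data known. The rule took the 14 largest rises and 14 largest falls with groups apart and a higher mean of at least 5, the largest differences of each list in both directions, and a fixed set of T cell genes. Other genes named were chosen for their roles after their values were seen. Gene positions are from GENCODE M21 (GRCm38), matched by symbol for 12147 of the 12436 genes, and promoter sequences are from RefSeq (GRCm38.p6). Alternatives were the 6 WT libraries alone, a replicate block, no filter or a mean of at least 5, no trend, array weights, quantile normalization, median centring, and leaving out libraries. Results for some genes are not reported here.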

Additional observations from a re-analysis of the deposited data

How the results depend on the processing

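The counts of genes called higher and lower stayed within 1.5 times the reported ones under every alternative run, at 3924 to 4311 higher and 3853 to 4209 lower when 1 library was left out, and 1194 to 1381 and 1251 to 1372 by at least 2-fold. Median centring moved the median difference to -0.11 and gave 3535 higher and 4840 lower calls (42.2% higher, against 50.6%). With all rows and no filter, 8396 of 18875 were called. Quantile normalization kept 7644 of the 8449 calls in the same direction and turned 1.

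The replicate numbers of the labels are not stated to pair the libraries. The correlations of deviations between same-numbered WT libraries were 0.13, 0.11 and 0.09, and -0.05, 0.04 and -0.01 in the libraries labelled KO. Between WT libraries and those labelled KO they were 0.11, 0.12 and 0.27 at 3 h and 0.08, 0.19 and 0.07 at 12 h. Between the WT times, and between WT libraries and those labelled KO at each time, each library correlated best with its own number. Between the times in the libraries labelled KO this did not hold. Replicate 2 was also the library set apart by the sex-linked genes in each group. These are hints from the data and not from the design. With the replicate block 8488 genes were called, and 8373 of the 8449 calls were kept.

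The test of the difference between the WT time change and that in the libraries labelled KO called 0 genes as reported, 3 with the replicate block, 2 under quantile normalization and 3 with no filter, with Pmepa1 among the first 2 sets and not the last. Leaving out 1 library gave 0 to 28. The cause was not tested.

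Of the 321 genes named with differences, 304 kept direction and call under each of the 21 alternatives that tested them. Calls of small differences were lost most often: Plk1 in 13 alternatives, Tnip1 in 9, Pcna and Il16 in 7, Tcf12 in 6, Mki67 and Xbp1 in 5, Smad2 in 4, Ski in 3, Csf2, Lyz2 and Tyk2 in 2, and Ccna2, Psmb8 and Srebf2 in 1. Calls were gained by Smad4 in 4 alternatives (adjusted p = 0.00220 to 0.0459) and by Foxp3 in 3, the replicate block among them (adjusted p = 0.0366). The cause was not tested. Depth is unknown, so what it limits cannot be given.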
